A study of Mus musculus with 2 samples.

Results

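The comparison described here set the cells around the vessels of the aorta-gonad-mesonephros region (AGM) against those of the yolk sac in mouse embryos at embryonic stage E11.5. Its members were chosen by the sort label of each well and by 1 filter, at least 500 genes with a count: 338 of 339 wells labelled AGM VE-cadherin negative and 379 of 383 labelled yolk sac VE-cadherin negative passed, so 717 of the 2954 wells in the series were used. All embryos were wild-type C57Bl/6, without treatment. Each tissue had been dissociated, stained for VE-cadherin, an adhesion protein of endothelial cells, and for 7AAD, a dye that enters dead cells, and live cells lacking VE-cadherin had been sorted as the microenvironment. Single cells had been placed in nanowells of an ICELL8 chip, 1 chip per stage, and imaged for the nuclear dye Hoechst. The chip of E11.5 also carried the VE-cadherin-positive (endothelial) cells of both tissues, wells without a cell and wells with RNA of mouse embryonic stem cells, and the chip of E9.5 carried the same kinds of cells from younger embryos. How many embryos went into a pool is not given in the sources used here. Each pool was thus 1 sample, no replicate existed and no test between conditions was possible. The exact 95% intervals given below reflect counting error alone, and they treat reads as independent molecules, although use of molecular identifiers is not stated in the sources used here.

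The AGM is the part of the trunk that holds the dorsal aorta, from whose wall the first definitive blood stem cells emerge; around the aorta lie mesenchyme, the forming kidney and gonad, nerves and the derivatives of the somites. The yolk sac lies outside the embryo. It has an outer layer of visceral endoderm, which takes up nutrients and secretes plasma proteins as the liver later does, and an inner layer of mesoderm with vessels, smooth muscle, mesothelium and the earliest red cells. Stromal cells of both sites supply blood-forming cells with growth factors, chemokines and matrix.

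The AGM pool held 1055616 counts without haemoglobin and the yolk sac pool 1094330. Median depth per well was 2806.5 counts over 1295 genes in the AGM and 3842 counts over 1067 genes in the yolk sac. Haemoglobin took a median of 3.45% of counts in AGM wells and 31.5% in yolk sac wells. Haemoglobin outnumbered all other counts in 10.6% of yolk sac wells and 0% of AGM wells. Levels are therefore given as CPM, counts scaled to a total of 1000000 without haemoglobin, and are not compared between genes because counts were not divided by transcript length. In such pools fewer cells of a type and less RNA per cell cannot be told apart. Gm42418, a row that overlaps ribosomal RNA, took 16.7% of those counts in the AGM and 23.8% in the yolk sac. Cdh5, which encodes VE-cadherin, had 14 and 18 counts, 13.3 CPM in the AGM and 16.4 CPM in the yolk sac, and lay below the VE-cadherin-positive pool of its own tissue by log2 ratios of -5.36 and -4.51. No cell barcode occurred in both pools or in the negative pools of both stages.

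Most yolk sac wells held markers of several cell types together. Counts of at least 3 different visceral endoderm markers were found in 368 of 379 yolk sac wells (97.1%) and 46 of 338 AGM wells (13.6%), at least 3 fibroblast markers in 378 (99.7%) and 253 (74.9%), and at least 3 erythroid markers other than globins in 353 (93.1%) and 48 (14.2%). Of the 368 yolk sac wells with endoderm markers, 367 also passed for fibroblast markers. A small set of wells stood apart: 8 yolk sac wells had 4.00% to 8.59% of their counts in endoderm markers, against a yolk sac upper quartile of 0.660%, and 7 of these had fibroblast shares of 0.360% to 0.648%, below the yolk sac lower quartile of 0.914%. After thinning every well to 1000 counts, which left 332 AGM and 378 yolk sac wells, the endoderm shares were 69.0% in the yolk sac and 2.11% in the AGM, the fibroblast shares 94.7% and 33.4% and the erythroid shares 59.5% and 1.51%. The yolk sac well with least haemoglobin still had 5.41%. Among the 47 wells of the chip without a cell, with a median of 329 counts, 23.8% of all counts were haemoglobin and the endoderm markers summed to 5614 CPM. The values below thus describe pools, not cell types, and how much RNA from outside each well's own cell contributed was not tested.

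**Figure D1:**
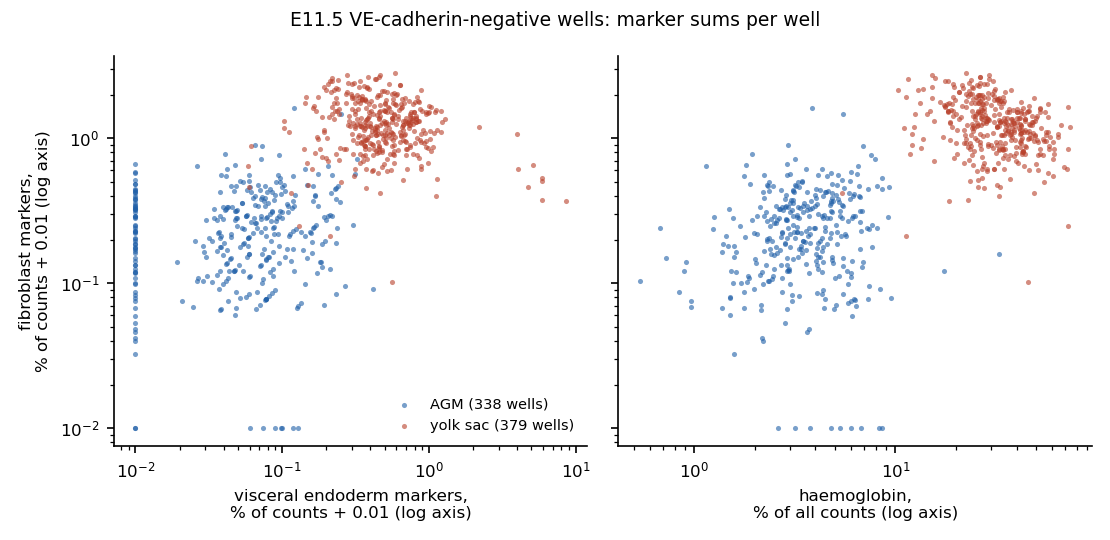
Each point is 1 VE-cadherin-negative well of E11.5: the vertical axis gives fibroblast markers as a percentage of counts without haemoglobin plus 0.01 (log axis), the horizontal axes visceral endoderm markers on the same scale (left) and haemoglobin as a percentage of all counts (right). The median endoderm share was 0.0496% in 338 AGM wells and 0.451% in 379 yolk sac wells, and the median fibroblast share 0.217% and 1.23%; most yolk sac wells form 1 cloud above the AGM wells, and 8 wells with 4.00% to 8.59% endoderm markers lie to its right, 7 of them with lower fibroblast shares (0.360% to 0.648%).

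At E11.5, genes of embryo patterning, axon guidance and cell adhesion lay higher in the AGM pool, and genes of plasma proteins, red cells, collagens and contractile cells lay higher in the yolk sac pool. A gene was counted as measured with at least 20 counts over both pools, and as higher or lower when the pools were at least 2-fold apart and the interval of the log2 ratio (AGM over yolk sac) did not include 0. Of 9345 measured genes, 1836 (19.6%) were higher and 769 (8.23%) lower in the AGM. At least 8-fold differences were found for 300 genes higher and 160 lower in the AGM. Higher genes made up 70.5% of these calls, but the split depended on scaling: it was 46.5% with TMM scaling, 61.8% with totals also without Gm42418 and 89.7% with haemoglobin kept in the totals. The median log2 ratio of all measured genes was 0.35, against -0.0028 with TMM, 0.22 without Gm42418 and 0.88 with haemoglobin, and list medians below are to be read against 0.35. Leaving out wells with at least 3 endoderm markers, a choice made after seeing the data, left 292 AGM and 11 yolk sac wells; the all-gene median was then -1.11, and 76 genes were higher and 222 lower, so that 25.5% of calls were higher. What set this shift was not tested.

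**Figure D2:**
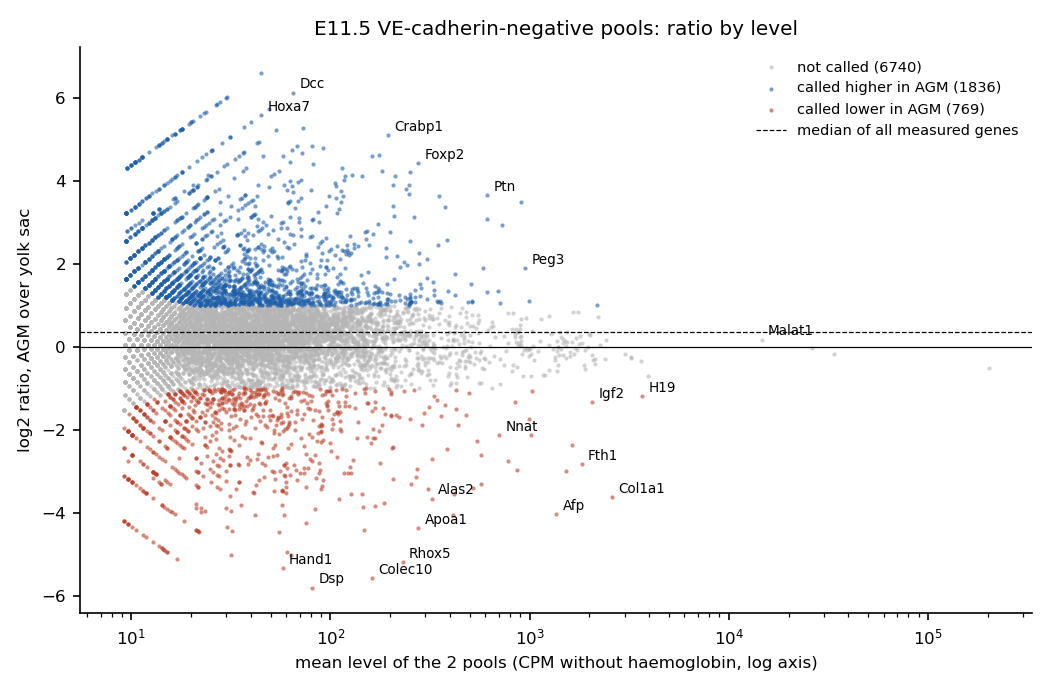
Each point is 1 gene measured at E11.5: the horizontal axis is its mean level over both pools in CPM without haemoglobin (log axis), the vertical axis its log2 ratio, AGM over yolk sac, and the dashed line the median of all measured genes (0.35). Blue points were counted as higher in the AGM (1836) and red points as lower (769); Col1a1, Afp and Fth1 stand out as abundant genes far below 0, and Ptn and Peg3 as abundant genes above it.

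Genes of the retinoid pathway, whose signal patterns the trunk, were higher in the AGM for 8 of 12 measured. Crabp1, a cytoplasmic carrier of retinoic acid (chr9:54764748-54773110, plus strand, GRCm38), stood at 376 CPM in the AGM pool (397 counts, in 42.6% of wells) and 11 CPM in the yolk sac pool (12 counts, 2.90% of wells), a log2 ratio of 5.10 (4.28 to 6.06). The VE-cadherin-positive pools of the same chip had 14.2 CPM (AGM) and 8.86 CPM (yolk sac), so of the 4 sorted pools the AGM negative one alone was high. The second carrier, Crabp2, had 156 CPM against 5.48 CPM, a log2 ratio of 4.83 (3.68 to 6.30). The pathway list held 20 genes, and its 12 measured members, of which 1 was lower in the AGM, had a median of 2.55. Aldh1a2, which makes retinoic acid, had 31 counts against 1, and the receptor gene Rarb 75 against 7 (3.47, 2.36 to 4.84). The gene that went the other way was Rbp4, the carrier of retinol in plasma, with 4 counts in the AGM and 134 in the yolk sac (-5.01, -6.91 to -3.62).

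Hox genes, which set position along the trunk, were higher in the AGM for 7 of the 8 that were measured. Of Hox groups 5 to 9, 4 of 15 listed genes were measured and 4 were higher, with a median of 3.31; of groups 1 to 4, 2 of 3 measured genes were higher, and of groups 10 to 13 the 1 measured gene, Hoxa10, was. Hoxa7 had 93 counts in the AGM and 2 in the yolk sac (5.59, 3.70 to 8.66), Hoxa9 76 and 4 (4.30, 2.88 to 6.21), Hoxb6 67 and 14 (2.31, 1.47 to 3.26) and Hoxa10 27 and 3 (3.22, 1.52 to 5.59). Hoxa7 shares exon sequence with the antisense gene Hoxaas3, and since the strand used in counting is not stated, their reads cannot be told apart. Of 12 measured cofactors and related factors 6 were higher and 0 lower, among them Meis2 with 462 CPM against 96.9 CPM (2.25, 1.95 to 2.57) and Meis1 with a log2 ratio of 1.65. The 2 COUP factors differed in size: Nr2f1 had 55 counts against 1 (5.83, 3.30 to 11.16), whereas Nr2f2 had 98 against 72 (0.50, 0.04 to 0.96) and was not counted as higher.

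Markers of somite, neural and kidney cells were low in both pools and higher in the AGM. All 7 measured of 13 somite and skeletal muscle markers were higher (median 3.37), as were 6 of 6 measured neural markers (2.77) and 4 of 5 measured mesonephros markers (2.64). Somite markers summed to 259 CPM in the AGM, 21.9 CPM in the yolk sac and 228 CPM in wells without a cell. These sums were 281, 54.8 and 152 CPM for neural and 228, 47.5 and 75.9 CPM for mesonephros markers. Values of wells without a cell are from a small total. Meox1, a somite factor, had 48 counts in the AGM and 3 in the yolk sac (4.05, 2.42 to 6.38), Pax9, a factor of the sclerotome, 37 and 1, and Dcx, a protein of young neurons, 21 and 0, at least 7.26-fold higher when the yolk sac is set to 3 counts. Wt1, a factor of the urogenital ridge and mesothelium, had 47 and 4 (3.61, 2.16 to 5.54), and Osr1, of the early kidney mesoderm, 39 and 3. At least 3 neural markers were found together in 13 AGM wells and 0 yolk sac wells, and at least 3 somite markers in 17 and 0. None of 12 markers of gonad and adrenal reached 20 counts; Gata4 had 9 and 8.

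Transcription factors of mesenchyme and of the limb and body wall were mostly higher in the AGM. Of 31 measured developmental factors 21 were higher in the AGM and 1 lower (median 1.42). Their sum was 6629 CPM in the AGM, 2987 CPM in the yolk sac and 5235 CPM in wells without a cell. Foxp2, a forkhead factor, had 529 CPM in the AGM and 24.7 CPM in the yolk sac, in 55.0% and 6.33% of wells (4.42, 3.86 to 5.04). Zfhx4, a zinc finger homeobox factor, had 400 CPM and 22.8 CPM, and Ebf2, of the early B cell factor family, 223 CPM and 12.8 CPM. Hmga2, a chromatin protein of growing embryonic cells, had 477 CPM and 25.6 CPM (4.22, 3.67 to 4.83). Of lateral plate and limb bud factors 7 of 11 measured were higher in the AGM, such as Twist1 with 58 counts against 1 (5.91, 3.37 to 11.24), Prrx1 with 138 against 5 (4.84, 3.58 to 6.48) and Isl1 with 37 against 1, of which 54.1% of the AGM counts came from 3 wells.

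Hand1, Hand2 and Tbx20 went against that direction. Hand1, a factor of extra-embryonic and lateral mesoderm (chr11:57828705-57832818, minus strand), had no count in any of 338 AGM wells and 126 counts in the yolk sac, in 23.7% of wells, so the AGM was at least 40.5-fold lower when set to 3 counts. Hand2 had 31 counts in the AGM and 241 in the yolk sac (-2.91, -3.50 to -2.36); it shares exons with the antisense gene Hand2os1. Tbx20, a T-box factor of heart and lateral mesoderm, had 11 and 172 (-3.91, -4.94 to -3.04). All 3 were higher in the negative than in the positive cells of the yolk sac where they were compared, with Hand1 at 115 CPM against 16.5 CPM.

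Receptors and ligands that steer axons, and the adhesion proteins known from nerve cells, were mostly higher in the AGM. Of 45 measured genes of axon guidance and neural adhesion, 32 were higher and 3 lower (median 2.15). Of 22 measured cadherins and protocadherins 18 were higher and 3 lower (2.52). The axon list summed to 8007 CPM in the AGM, 3127 CPM in the yolk sac and 6145 CPM in wells without a cell. For the cadherin list these sums were 2567 CPM, 1168 CPM and 1442 CPM. The part of RNA from outside the wells' own cells was not tested. Dcc, the netrin receptor, had 135 counts in the AGM and 2 in the yolk sac (6.13, 4.25 to 9.19), Lsamp 356 and 15 (4.62, 3.88 to 5.47), Adgrb3 187 and 7 and Adgrl3 366 and 20. Sema3a, a repellent ligand, had 198 CPM against 12.8 CPM (3.95, 3.17 to 4.85). Pcdh9 had 385 CPM against 25.6 CPM, Fat3 196 CPM against 16.4 CPM, and Pcdh19 35 counts against 0. Il1rapl2, an interleukin-1 receptor-like protein of neurons, had 150 counts against 4, but 50.7% of its AGM counts came from 3 wells. Neural tube and neuron markers moved with these lists, 6 of 6 measured being higher in the AGM with a summed 281 CPM against 54.8 CPM; Dcx was at 0 in the yolk sac, and their part in the result was not tested.

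Among growth factors that stromal cells offer to blood and vessels, 14 of 23 measured were higher in the AGM and 3 lower (median 1.22), and with TMM scaling 10 were higher and 5 lower. The summed list stood at 4198 CPM in the AGM and 3749 CPM in the yolk sac. Ptn (pleiotrophin) had 1132 CPM in the AGM and 89.6 CPM in the yolk sac, in 79.9% and 17.2% of wells (3.66, 3.36 to 3.97), and its relative Mdk (midkine) 659 CPM and 111 CPM (2.56, 2.28 to 2.85). Cxcl12, the chemokine that holds blood stem cells in their niche, had 259 CPM and 42.9 CPM, in 37.3% and 10.6% of wells (2.59, 2.14 to 3.07). Kitl, the ligand of the receptor Kit, had 42 counts and 20 (1.12, 0.32 to 1.97), a difference that falls under 2-fold with TMM scaling. Kit itself had 29 and 9 (1.74, 0.62 to 3.0). The 3 that were lower were Igf2, Csf1 and Dlk1, and Dlk1, a membrane protein of stromal cells, had 53.1 CPM in the AGM and 136 CPM in the yolk sac (-1.36, -1.83 to -0.91). Blood genes were sparse: Runx1 had 24 and 35 counts (-0.49, -1.31 to 0.30), and Ptprc and Itga2b had 12 or fewer over both pools.

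Signalling pathways varied in how many members differed. Among the genes that BMP signals switch on, Id3 had 271 CPM in the AGM and 15.5 CPM in the yolk sac (4.12, 3.42 to 4.92), Id2 221 CPM and 13.7 CPM and Id1 113 CPM and 8.22 CPM. The BMP receptor gene Bmpr1b had 200 CPM and 13.7 CPM (3.87, 3.11 to 4.73), and Bmper, which binds BMP outside the cell, 135 CPM and 8.22 CPM. Of all 24 measured BMP and TGF-beta genes 7 were higher and 2 lower, with a median of 0.43. Of 20 measured WNT genes 13 were higher and 0 lower (1.29), with Rspo3, an enhancer of WNT signals, at 54 counts against 3 (4.22, 2.60 to 6.54), the receptor Ror1 at 325 against 43 and the nuclear partner Lef1 at 33 against 1. TMM scaling left 9 higher and 1 lower.

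Of 11 measured Hedgehog genes 5 were higher and 1 lower. The effector Gli3 had 174 CPM against 37.5 CPM (2.22, 1.72 to 2.74), and the gene that was lower was Hhip, which binds and blocks the ligand, with 28 counts against 94 (-1.70, -2.36 to -1.07). Of 11 measured Notch genes 3 were higher and 1 lower, and this turned to 1 higher and 2 lower with TMM scaling. Hes1, a repressor that Notch switches on, had 88.1 CPM in the AGM and 245 CPM in the yolk sac (-1.47, -1.83 to -1.13). For FGF, PDGF and VEGF genes, 6 of 21 measured were higher and 2 lower, and the median of 0.05 became -0.30 with TMM scaling, so no direction is given for the list. Nrp1, a co-receptor of VEGF and semaphorins, had 103 CPM against 324 CPM (-1.65, -1.97 to -1.34).

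**Figure D3:**
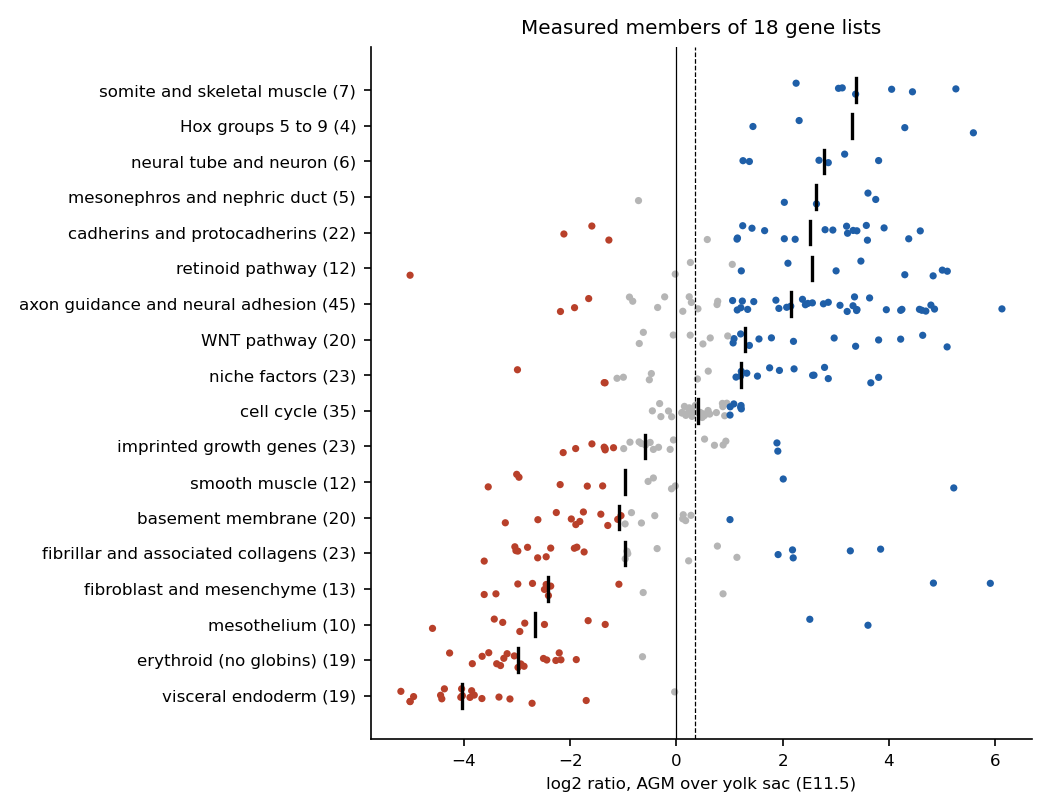
Each point is a measured member of 1 of 18 gene lists, placed by its log2 ratio, AGM over yolk sac, at E11.5, with blue for higher in the AGM, red for lower, grey for neither and a black bar for the list's median; numbers in brackets count the measured members, and the dashed line is the median of all genes (0.35). Somite, Hox and neural lists sit to the right with medians of 3.37, 3.31 and 2.77, while the erythroid and visceral endoderm lists sit to the left at -2.98 and -4.03.

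Visceral endoderm genes were lower in the AGM for 18 of 19 measured. Of 29 listed markers 0 were higher, the median was -4.03, and the counts of 18 lower and 0 higher were the same under each scaling tried. Afp, alpha-fetoprotein, the main plasma protein of the embryo (chr5:90490737-90508907, plus strand), had 157 CPM in the AGM and 2569 CPM in the yolk sac, in 37.9% and 96.3% of wells (-4.03, -4.26 to -3.80). The apolipoproteins Apoa1 and Apoa2 had 25.6 CPM against 528 CPM (-4.37, -4.98 to -3.81) and 13.3 CPM against 283 CPM (-4.42, -5.30 to -3.65). Ttr, which carries thyroid hormone and retinol-binding protein, had 47.4 CPM against 781 CPM, and Fgb, a fibrinogen chain, 4 counts against 128. Rhox5, a homeobox gene of extra-embryonic tissue, had 12.3 CPM against 449 CPM (-5.19, -6.11 to -4.40), and Colec10, a collectin, 6.63 CPM against 317 CPM (-5.58, -6.90 to -4.52).

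Genes for taking up nutrients were also lower. Of 24 measured genes of endocytosis and nutrient transport 12 were lower in the AGM and 0 higher (median -1.09), among them the scavenger receptors Cubn, with 8 counts against 116 (-3.81, -5.05 to -2.78), and Lrp2, with 11 against 75 (-2.72, -3.78 to -1.80). Of 25 measured genes of lipid transport and plasma proteins 16 were lower and 1 higher (-3.20). Spp2, a secreted phosphoprotein of liver, had 8 counts against 157, and Tdo2, which breaks down tryptophan, 5 against 115. Between the gates of the yolk sac, 544 of 8006 measured genes were counted as higher in the positive pool, and 64 of the 763 among them that were lower in the AGM. Most endoderm markers were higher in the VE-cadherin-positive gate: 14 of the 18 endoderm markers that were lower in the AGM were at least 2-fold higher in the yolk sac's positive pool than in its negative pool (median log2 ratio, negative over positive, -1.32), and Afp had 6494 CPM there. Other genes named above went the opposite way, with log2 ratios, negative over positive, of 3.21 (2.23 to 4.37) for Tdo2, 2.92 (2.41 to 3.49) for Colec10 and 1.25 (0.98 to 1.52) for Rhox5. The summed markers came to 536 CPM in the AGM negative, 6181 CPM in the yolk sac negative and 15369 CPM in the yolk sac positive pool.

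Erythroid genes outside the globins were lower in the AGM for 18 of 19 measured markers, with 0 higher and a median of -2.98 under the main scaling, and the counts were the same under each scaling. Alas2, which starts haem synthesis in red cells, had 47.4 CPM in the AGM and 598 CPM in the yolk sac, in 12.4% and 69.1% of wells (-3.66, -4.10 to -3.24). Slc4a1, the anion exchanger of the red cell membrane, had 21.8 CPM against 313 CPM (-3.84, -4.52 to -3.23), and Car2, carbonic anhydrase, 104 CPM against 1034 CPM (-3.31, -3.61 to -3.03). Fth1, the ferritin heavy chain that stores iron, was among the most abundant rows of the yolk sac, with 3203 CPM against 449 CPM (-2.83, -2.98 to -2.70), though it has a near-identical copy elsewhere in the genome. Between the gates of the yolk sac 0 of the 18 genes were counted as different by the same rule (median log2 ratio, negative over positive, -0.33). Of all 8006 genes measured there, 922 were higher in the negative and 544 in the positive pool. Haemoglobin moved with the group: the chip's wells without a cell held erythroid markers at 3945 CPM, close to the 4123 CPM of the yolk sac pool and above the 553 CPM of the AGM pool, and its part in the result was not tested.

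The promoters of 3 genes are shown, 2 lower in the AGM (an erythroid and a plasma protein gene) and 1 higher, because they carry different sequence elements; each is the 250 bases before the RefSeq start on GRCm38.p6, 5′ to 3′ on the gene's strand, with motif matches in capitals. Epor, the erythropoietin receptor (1 count in the AGM, 20 in the yolk sac), was chosen after its values were seen. Its window, chr9:21963577-21963826 on the minus strand, has a GATA motif (AGATAA) 54 bases and an SP1 motif (GGGGCGGGG) 28 bases before the start, both on the opposite strand.
Epor: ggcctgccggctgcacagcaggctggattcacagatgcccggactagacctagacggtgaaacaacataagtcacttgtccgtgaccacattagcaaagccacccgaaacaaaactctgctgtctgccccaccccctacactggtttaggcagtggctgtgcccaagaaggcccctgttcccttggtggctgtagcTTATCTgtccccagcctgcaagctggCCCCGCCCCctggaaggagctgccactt
Apoa2: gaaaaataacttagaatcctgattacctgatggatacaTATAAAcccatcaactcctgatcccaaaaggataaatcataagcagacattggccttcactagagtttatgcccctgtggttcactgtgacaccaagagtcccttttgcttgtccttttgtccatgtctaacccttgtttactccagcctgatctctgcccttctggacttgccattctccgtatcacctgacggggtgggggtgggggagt
Crabp1: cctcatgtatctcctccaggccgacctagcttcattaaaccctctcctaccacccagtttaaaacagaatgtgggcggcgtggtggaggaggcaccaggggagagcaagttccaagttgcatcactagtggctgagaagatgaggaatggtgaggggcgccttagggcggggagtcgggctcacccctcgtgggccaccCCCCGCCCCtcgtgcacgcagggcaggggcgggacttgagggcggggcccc
The Apoa2 window (chr1:171224804-171225053, plus strand) has a TATA motif (TATAAA) 212 bases before the start; a second Apoa2 window in RefSeq (chr1:171221314-171221563) held none of the motifs searched. The Crabp1 window (chr9:54764498-54764747, plus strand) has an SP1 motif, also on the opposite strand, 51 bases before the start. Over both strands, the GATA letters occurred in 3 of 11 promoters of the erythroid markers that were lower in the AGM (10 of these 18 genes had a promoter to search). They occurred in 1 of 19 promoters of the lower endoderm, 1 of 6 of the fibroblast and 0 of 4 of the smooth muscle markers. Their share was 5.61% of 9170 promoters of genes measured at E11.5 and 9.99% of all 32851 promoters. TATA letters occurred in 4 of 19 promoters of the endoderm, 4 of 11 of the erythroid, 2 of 6 of the fibroblast and 0 of 4 of the smooth muscle markers. They were in 6.30% of promoters of measured genes. HNF4 (CAAAGTCCA), HNF1 and CArG letters were not found in promoters of the erythroid, endoderm, smooth muscle or fibroblast markers that were lower, which says only that these letters are not in those windows. They were rare in any case: of the 9170 promoters of measured genes, 20 held the HNF4, 2 the CArG and 0 the HNF1 letters.

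The chains of type I and type III collagen were lower in the AGM, as were 9 of 13 measured fibroblast markers. Col1a1, the main chain of type I collagen (chr11:94936224-94953042, plus strand), had 393 CPM in the AGM and 4829 CPM in the yolk sac, in 59.8% and 100% of wells (-3.62, -3.77 to -3.47). Col1a2 had 341 CPM against 2701 CPM (-2.99, -3.15 to -2.83), Col3a1 530 CPM against 2736 CPM (-2.37, -2.50 to -2.24) and Lum, a proteoglycan that spaces collagen fibrils, 90.0 CPM against 949 CPM (-3.40, -3.72 to -3.09). Of 13 measured fibroblast markers 9 were lower and 2 (Twist1 and Prrx1) higher, and of 23 measured fibrillar and associated collagens 11 were lower and 5 higher. The 5 included Col2a1, the fibrillar collagen of cartilage, named after its values were seen, with 353 CPM against 77.7 CPM (2.19, 1.84 to 2.54), and Col23a1, a membrane collagen, with 91.9 CPM against 6.40 CPM (3.84, 2.75 to 5.2). In contrast to the endoderm genes, 9 of the 9 fibroblast markers and 11 of the 11 collagens that were lower in the AGM were at least 2-fold higher in the yolk sac's negative than in its positive pool, with a median of 3.53 for the fibroblast markers. This held for 922 of 8006 genes measured between these gates, and for 293 of the 763 among them that were lower in the AGM. The fibroblast markers summed to 2323 CPM in the AGM, 13374 CPM in the yolk sac and 4704 CPM in wells without a cell; the part of RNA from outside the wells' own cells was not tested.

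Other matrix genes split by scaling. Of 35 measured proteoglycans and glycoproteins 12 were higher and 14 lower in the AGM, with 6 and 18 under TMM scaling and 13 and 10 with haemoglobin in the totals. Gpc6, a glypican, had 1661 CPM in the AGM and 147 CPM in the yolk sac, in 86.7% and 32.5% of wells (3.5, 3.26 to 3.74). Mfap4, of elastic fibres, had 129 CPM against 8.22 CPM, and Sulf1, which trims heparan sulphate, 310 CPM against 12.8 CPM (4.6, 3.83 to 5.48). Postn and Dcn were lower, at 86.2 CPM against 564 CPM and 65.4 CPM against 347 CPM. Enzymes that process collagen were lower for 11 of 30 measured genes and higher for 3, with 1 higher and 15 lower under TMM scaling, but 7 higher and 3 lower with haemoglobin in the totals. The collagen chaperone Serpinh1 had 225 CPM against 632 CPM (-1.49, -1.71 to -1.28) and the cross-linking enzyme Lox 16 counts against 82.

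Contractile genes were lower in the AGM with exceptions. Acta2, smooth muscle actin, had 197 CPM in the AGM and 1537 CPM in the yolk sac, in 30.8% and 92.3% of wells (-2.96, -3.18 to -2.75), Actg2 22.7 CPM and 265 CPM (-3.54, -4.21 to -2.94), Tagln 58.7 CPM and 268 CPM and Myl9 95.7 CPM and 306 CPM. Of 12 measured smooth muscle markers 6 were lower and 2 higher; one of the 2 was Acta1, skeletal actin, with 36 counts against 1, 63.9% of them from 3 AGM wells. Smooth muscle markers summed to 1688 CPM in the AGM, 3737 CPM in the yolk sac and 1669 CPM in wells without a cell. The part of RNA from outside the wells' own cells was not tested. Mesothelial markers were lower for 8 of 10 measured, such as the keratins Krt8 (6 counts against 67) and Krt18 (12 against 90) and the uroplakin Upk3b (6 against 48), and higher for Wt1 and Tbx18. Dsp, desmoplakin of epithelial junctions, had 3 counts against 174 (-5.81, -8.10 to -4.23).

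Smaller groups were also lower. Among steroid and xenobiotic enzymes 5 of 12 measured were lower and 2 higher: Hsd3b6, a steroid dehydrogenase, had 53.1 CPM against 567 CPM (-3.42, -3.84 to -3.02), Hsd11b2, which inactivates glucocorticoid, 19.9 CPM against 233 CPM, and Mgst3, a glutathione transferase, 54.9 CPM against 481 CPM. Hsd3b6 has near-identical copies among its family. The list of these enzymes summed to 425 CPM in the AGM, 1675 CPM in the yolk sac and 2504 CPM in wells without a cell. Macrophage markers were lower for 4 of 6 measured, and for 2 with haemoglobin in the totals, including Mrc1 (22 counts against 91) and Pf4 (9 against 104), which platelets make too; the positive pools of both tissues held far more of this list, 2373 CPM and 2054 CPM against 91.9 CPM and 287 CPM in the negative pools. Wells without a cell held macrophage markers at 1214 CPM, above both negative pools but from a small total. For both lists the part of RNA from outside the wells' own cells was not tested. All 3 measured interferon and antigen presentation genes were lower, with B2m at 69.2 CPM against 283 CPM (-2.03, -2.42 to -1.66).

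Growth and housekeeping lists differed less. Imprinted growth genes were lower for 7 and higher for 2 of 23 measured under the main scaling, with 11 lower and 2 higher under TMM scaling, but 3 lower and 6 higher with haemoglobin in the totals. Igf2, the fetal growth factor, had 1166 CPM in the AGM and 2958 CPM in the yolk sac (-1.34, -1.44 to -1.25), and its neighbour H19 2245 CPM and 5101 CPM (-1.18, -1.25 to -1.11). Peg3 had 1503 CPM and 405 CPM (1.89, 1.74 to 2.05) and Grb10, an inhibitor of growth factor receptors, 920 CPM and 245 CPM (1.91, 1.71 to 2.11). Of 35 measured cell cycle genes 6 were higher, a share near the 19.6% of all genes, and 0 lower. They included the replication helicase genes Mcm4 (1.22) and Mcm7 (1.22), and with TMM scaling 0 of the 35 were higher. For glycolysis (median 0.28) and dissociation stress genes (0.05) the sign of the median turned with TMM scaling, to -0.08 and -0.30. Among the rows with most counts, Malat1 (0.17) and Actb (-0.17) lay near 0, and Ptma at 1.00 was barely counted as higher.

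Comparing the stages shows which genes were counted at E11.5 but fell short of 2-fold in that direction at E9.5. Such genes could still have a smaller or an opposite difference at E9.5. At E9.5, 3336 of 10067 measured genes (33.1%) were higher and 713 (7.08%) lower in the AGM, and the median log2 ratio of all measured genes was 0.57. Over the 8519 genes measured at both stages, 1015 (11.9%) were higher and 249 (2.92%) lower at both. A gene was counted at E11.5 only when it was called there, its E9.5 interval ended short of 2-fold in that direction and the interval of the difference of the 2 log2 ratios excluded 0: this held for 222 genes higher (2.61%) and 249 lower (2.92%). By direction, 97 genes (1.14%) were lower at E11.5 and higher at E9.5, and 6 (0.0704%) were the reverse. The stages were on separate chips, and stage and chip cannot be told apart. Of the 222 genes higher at E11.5 only, 76 stayed in the list with TMM scaling and 86 with haemoglobin in the totals; of the 249 lower, 175 and 116 did.

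For these genes the stages stood further apart in the yolk sac pool than in the AGM pool. For the 249 genes lower in the AGM at E11.5 only, the median log2 ratio of E11.5 over E9.5 was 2.42 in the yolk sac (0.36 for all genes) and -0.11 in the AGM (0.097 for all genes); 216 of them stood at least 2-fold higher at E11.5 than at E9.5 in the yolk sac and 0 at least 2-fold lower. In the AGM 35 stood at least 2-fold higher and 64 (25.7%) at least 2-fold lower. For the 222 genes higher in the AGM at E11.5 only, the yolk sac median was -1.31, with 146 genes at least 2-fold lower at E11.5, and 2 at least 2-fold higher, and the AGM median was -0.0081, with 33 genes 2-fold higher and 10 lower. These levels are from the counts that chose the genes and are a description.

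**Figure D4:**
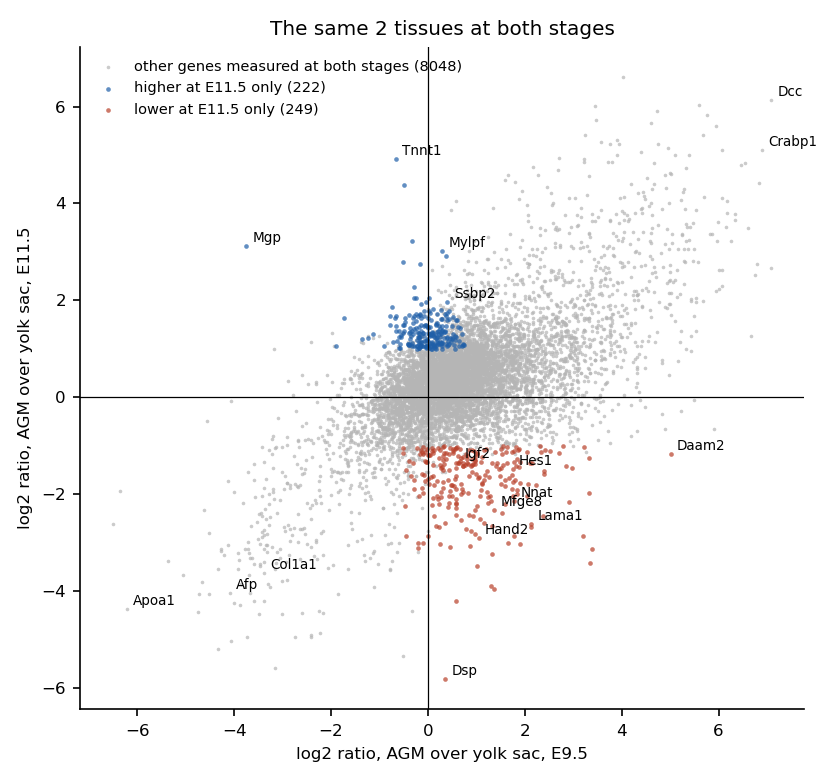
Each point is 1 gene measured at both stages, placed by its log2 ratio, AGM over yolk sac, at E9.5 (horizontal) and E11.5 (vertical). Blue points are the 222 genes higher at E11.5 only and red points the 249 genes lower at E11.5 only; Afp, Apoa1 and Col1a1 lie low at both stages, Crabp1 and Dcc high at both, and Mgp lies far to the upper left (-3.75 and 3.13).

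Of 19 basement membrane genes measured at both stages, 10 were lower in the AGM at E11.5 only, beside 2.92% of all genes. Basement membranes are sheets of type IV collagen, laminin and nidogen under epithelia and around vessels. Col4a1 had 189 CPM in the AGM and 904 CPM in the yolk sac (-2.26, -2.49 to -2.04) and at E9.5 108 CPM and 81.0 CPM (0.42); Col4a1 and Col4a2 share exon sequence. Nid1 had 66.3 CPM and 261 CPM (-1.98) at E11.5 and 17.2 CPM and 18.5 CPM at E9.5. Lama1, a laminin chain, had 23.7 CPM and 144 CPM at E11.5 and 46.7 CPM and 10.7 CPM at E9.5, so that its direction turned over (-2.61 and 2.13). The summed list went from 395 CPM to 2974 CPM in the yolk sac and from 725 CPM to 1114 CPM in the AGM. Agrn, which clusters receptors at synapses, was the 1 member of the list higher in the AGM, at a log2 ratio of 1.01, and was not called with TMM scaling, without Gm42418 or without mitochondrial rows. Of the 20 measured members 11 were lower at E11.5, and 7 with haemoglobin in the totals. Other lists also differed between the stages in the yolk sac pool. Fibroblast markers summed to 1428 CPM at E9.5 and 13374 CPM at E11.5, and endoderm markers to 984 CPM and 6181 CPM. Erythroid markers went the other way, from 9026 CPM to 4123 CPM. The part of the pool's make-up in the stage differences was not tested.

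Several regulators and secreted factors were in the list of genes lower in the AGM at E11.5 only. Of 21 imprinted growth genes measured at both stages 6 were lower at E11.5 only, beside 2.92% of all genes: Nnat, neuronatin (chr2:157560078-157562522, plus strand), had 261 CPM in the AGM and 1146 CPM in the yolk sac at E11.5 (-2.13, -2.33 to -1.94) and 121 CPM and 34.9 CPM at E9.5 (1.79, 1.41 to 2.17), while Igf2 was at 392 CPM and 253 CPM at E9.5 (0.63). Hand2 had 29.4 CPM and 220 CPM at E11.5 against 22.1 CPM and 10.7 CPM at E9.5, and Hes1 88.1 CPM and 245 CPM against 67.6 CPM and 20.1 CPM. Daam2, a formin of the WNT pathway, had 66 and 154 counts at E11.5 and 43 and 2 at E9.5. Mfge8, a secreted protein that tags dying cells, had 53.1 CPM and 266 CPM at E11.5 and 55.3 CPM and 21.4 CPM at E9.5. Tagln and Myl9 belonged to the list too, with differences between the stages of -2.42 and -2.24, as did Dsp (-6.16, -8.54 to -4.46).

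Among genes higher in the AGM at E11.5 only, the one with the widest gap between stages was Mgp. Mgp, matrix Gla protein, which blocks calcification (chr6:136872435-136875823, minus strand), had 55.9 CPM in the AGM and 6.40 CPM in the yolk sac at E11.5 (3.13, 1.99 to 4.50) and 8.61 CPM and 116 CPM at E9.5 (-3.75, -4.64 to -2.98); wells without a cell held it at 379 CPM on the E11.5 chip, from a small total. A pair of muscle genes followed. Tnnt1, slow skeletal troponin T, had 87 counts against 3 (4.91, 3.32 to 7.22) and Mylpf, a fast muscle myosin light chain, 86 against 11, of which 58.1% of the AGM counts came from 3 wells. Ssbp2, a partner of LIM-domain factors, had 386 CPM against 98.7 CPM (1.97) and was at 0.40 at E9.5. The other genes named by the fixed rule were Rabgap1l, Utp14a, Bcas2, Tnik, Snhg8, Wdr12, Psmd7 and Metap1d, with log2 ratios at E11.5 of 1.15 to 1.68. Of the 35 cell cycle genes 5 were in this list, beside 2.61% of all genes: Mcm3, Mcm4, Mcm7, Smc2 and Cdc6. With TMM scaling no cell cycle gene was higher at E11.5.

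**Figure D5:**
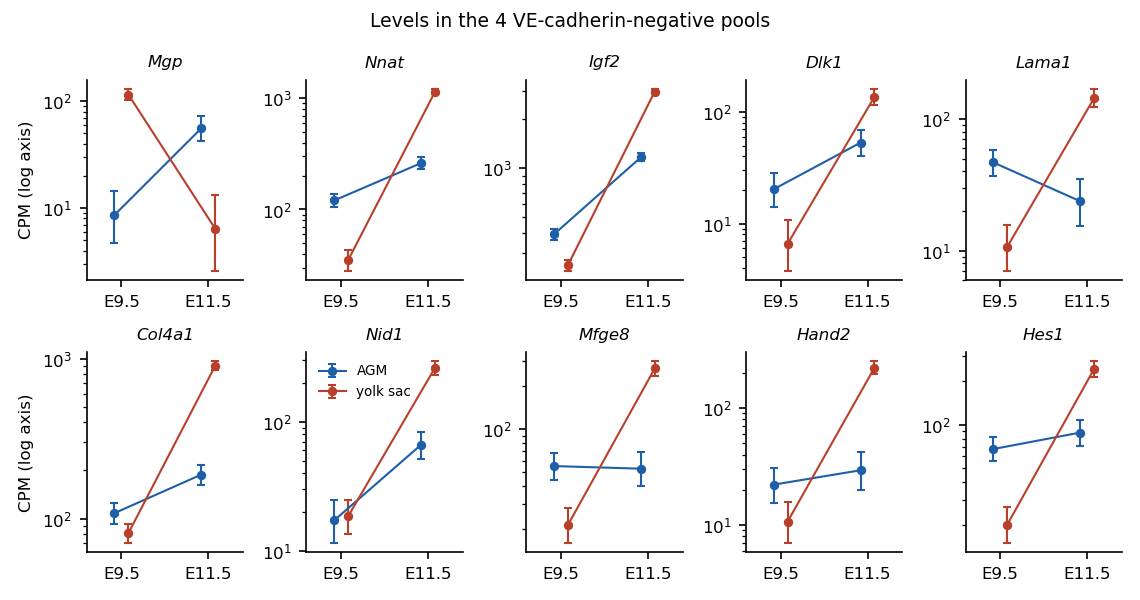
Levels in CPM without haemoglobin (log axis) of 10 genes in the AGM (blue) and yolk sac (red) VE-cadherin-negative pools at E9.5 and E11.5; each point is 1 pool and bars are exact 95% Poisson intervals for counting error. The yolk sac line falls for Mgp, from 116 to 6.40 CPM, and climbs for the other genes, as for Nnat from 34.9 to 1146 CPM.

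Counting could affect some of the genes above. Of 215 named genes, 69 share exon sequence with another annotated gene and 33 have a stretch of at least 200 bases with at least 90% identity in another gene's transcripts. The latter include Ptma, Actb, Fth1, Hmga2, Mcm4, Mcm7, Krt8, Krt18, Id2, Sema3a, Hsd3b6, Bcas2, Utp14a, Ssbp2 and Wdr12. Reads of these genes may have been split or merged, and their values are uncertain to that extent.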

How the data were processed

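Gene counts per nanowell were used as the authors deposited them, 1 table per chip, with the sort label of each well. Reads had been processed with FastQC, cutadapt and STAR on GRCm38/mm10, per the submitters' processing notes; versions, the counting step, strand and use of molecular identifiers are not given in the sources used here. Wells with at least 500 genes were kept (717 wells, 846 to 20071 counts each without haemoglobin), and counts were summed per sort label and stage. No doublet caller was run; doublets were gated out at sorting, per the labels' protocols.

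Counts were divided by totals without the haemoglobin rows. Each gene's log2 ratio has an exact 95% conditional binomial interval, a pool at 0 being set to 3 counts; differences between stages combine both intervals. Genes were named by a rule: the 15 per direction furthest from 0 by the interval's nearer bound, given 50 or more counts in the pool where they were higher and a count in 10% or more of its wells, 12 per direction at E11.5 only, up to 8 with opposite directions, the 8 rows with most counts per pool, up to 5 per list and a set of 20 genes. Globin, mitochondrial, ribosomal and clone-named genes were left out. Epor, Csf1, Tbx18, Col2a1 and Agrn were named after their values were seen. Members and the 45 gene lists were chosen with earlier results of these data known. Motifs were searched in RefSeq promoters, exons taken from GENCODE M21 and near-identical copies from its transcripts. Alternatives covered scaling (TMM from edgeR 4.0.16), filters on wells and counts, weights and thinning to 1000 counts. Python 3.11.15, numpy 2.4.6, scipy 1.17.1 and pandas 2.3.3 were used. Wells labelled as positive controls and the E9.5 positive pools were not analysed here.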

Additional observations from a re-analysis of the deposited data

Results flagged for a closer look

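For 24 named genes the pools of the 2 stages lay in opposite directions, each counted as at least 2-fold apart; with 1 pool per tissue and stage, the difference was not tested across samples, and stage and chip cannot be told apart. Values are the log2 ratio, AGM over yolk sac, at E11.5 less that at E9.5. A group of 3 genes was higher in the AGM at E11.5 and lower at E9.5: Mgp differed by 6.87 (5.50 to 8.51), Rabgap1l, a regulator of membrane traffic, by 2.47, and Pfkm, a phosphofructokinase, by 2.44. Both Rabgap1l and Pfkm share exons with another annotated gene.

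The other 21 genes were lower in the AGM at E11.5 and higher at E9.5. Among extracellular proteins the difference was -4.74 for Lama1, -4.54 for Lama5 (3 AGM counts), -4.92 for Col16a1, -3.70 for Mfge8 and -2.43 for Loxl2, a cross-linking enzyme with a near-identical stretch in transcripts of 31 other genes. Among receptors and membrane proteins it was -2.94 for Pdgfrb, -2.90 for Ednrb, -3.32 for Nrp1, -2.77 for Igf2r, -2.98 for Dlk1 and -5.32 for the junction gene Cldn6 (2 AGM counts). Among regulators it was -3.96 for Hand2, -3.22 for Hes1, -6.18 for Daam2, -3.92 for the RNA-editing enzyme gene Adarb1 and -4.24 for Tiparp, a target of the aryl hydrocarbon receptor. It was -3.92 for Nnat, -2.97 for Sc5d, a sterol enzyme, and -4.65 for the interferon-induced gene Ifitm1, which has a near-identical copy. It was -4.82 for Ddb2, a DNA damage sensor, with 59.3% of its yolk sac counts from 3 wells and exons shared with Acp2, and -4.80 for Rec114, a gene of meiotic recombination that shares exons with Nptn.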

How the results depend on the processing

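The counts of genes higher and lower in the AGM at E11.5 (1836 and 769), and of those at E11.5 only (222 and 249), depended on scaling. With haemoglobin in the totals, 3987 were higher, 457 lower and 138 lower at E11.5 only; with TMM scaling, 1059, 1218 and, higher at E11.5 only, 132; with ratios less the all-gene median, 1059, 1217 and 126. Requiring at least 100 counts gave 528 and 271, and 74 and 64 at E11.5 only, and turned the median of the lateral plate list to -1.30; fewer genes were tested there. Of the 1836 higher genes 1059 were also called with TMM scaling, as were all 769 lower genes.

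Another 3 alternatives were chosen after seeing the data. Totals also without Gm42418 gave 138 genes higher at E11.5 only. Without wells holding at least 3 erythroid markers (290 AGM and 26 yolk sac wells left), 427 were higher and 369 lower, and the log2 ratios of Tiparp (0.037), Hoxc4 (-0.42), Notch2 (-0.12) and the platelet list (0.28) changed sign; no yolk sac well was left at E9.5, so stage differences were not run. Without wells holding at least 3 endoderm markers (292 and 11 wells), 76 were higher and 222 lower, 10 and 78 at E11.5 only, and the values of Rabgap1l (-0.28), Metap1d (-1.12), Notch3 (-0.15), Eya1 (-2.15), Pdgfd (-0.99), Hsd17b7 (-1.59), Pfkm (-0.90), Mcm3 (-0.75), Hspa1a (0.97) and the platelet list (0.31) changed sign. These settings leave fewer wells; the cause was not tested.

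Over all alternatives, 2773 of the recomputed ratios of named genes stayed inside the gene's own counting interval from the main setting. Such intervals can be wide, so these ratios need not have moved little. A further 339 ratios lay outside, and 12 were counted as changed in sign. Ratios of genes below the count minimum in a setting were not scored. Without wells holding endoderm markers, 22 ratios stayed inside, 69 lay outside and 9 changed sign. The 12 arose without wells holding erythroid markers (3 ratios) or endoderm markers (9 ratios). They are not every change of sign: the small ratio of Malat1 turned negative with TMM scaling and is not among them. Thinning wells to equal depth moved 378 of 430 shares of wells with a count. No paired analysis was possible because each group was 1 pool.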

Other observations

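The remaining gene lists held few measured members. Of 6 measured endothelial markers 1 was lower in the AGM, Plvap, which forms the diaphragms of small vessel openings, with 5 counts against 42 in the yolk sac (-3.02, -4.71 to -1.68). Of 4 measured pericyte markers Notch3 was higher (50 counts against 16) and Pdgfrb, the platelet-derived growth factor receptor of mural cells, lower (46 against 101). Both called neural crest markers, Ednrb (26 against 84) and Hand2, were lower, of 3 measured. The epithelial genes Cdh1 (4 against 18) and Cldn6 (2 against 32) were the 2 measured gut markers, and both were lower. Of 3 measured platelet markers Pf4 and Plek were lower, and the 2 measured neutrophil and mast cell markers were Kit, higher, and Mpo, lower (4 against 17).

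Metabolic and stress genes mostly lay within 2-fold. Of 17 measured genes of cholesterol synthesis 1 was higher, Hsd17b7, and 1 lower, Sc5d; with haemoglobin in the totals 7 were higher and 0 lower. Among glycolysis genes, Ldhb had 163 CPM in the AGM and 26.5 CPM in the yolk sac (2.62, 2.05 to 3.24), but 62.1% of its yolk sac counts came from 3 wells. The glucose transporter gene Slc2a1 had 26.5 CPM and 96.9 CPM (-1.87, -2.52 to -1.26). Of 23 stress genes 5 were higher and 3 lower, and 2 and 5 with TMM scaling: Jun had 424 CPM and 190.1 CPM, and the heat shock gene Hspa1a, which has a near-identical copy, 206 CPM and 546 CPM.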
